A study of Yarrowia lipolytica with 9 samples.

Results

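The genes described here are those whose transcripts were more abundant than in the control in both Yl-SPT15 mutant strains of the oleaginous yeast Yarrowia lipolytica. Members were chosen by the measured change against the control: a gene was taken when its mean scaled count was higher by at least 0.6 on the log2 scale in each of the mutants, when its control mean was no lower than 2 CPM (counts relative to the library's total) and when it was not among the 100 features with the highest control FPKM (counts per length and library total). The rule found 77 members among 6145 measured features, of which 5569 carried a RefSeq transcript accession and met the limits on level. All strains derived from strain ATCC 201249 and carried a heterologous beta-carotene pathway (crtE, crtB, crtI and crtY) at the rDNA together with extra Yl-SPT15 cassettes at the GUT2 site, which lowered GUT2 transcript without removing it, and their native gene was still present. The control, labelled ctrl and called Yl_5_1 in the study, carried only wild-type cassettes. The strain labelled Y5_2, a colony picked for its deep yellow color, carried E208A in the first cassette and P25T, A213T and A216V in the fifth. The strain labelled Y5_3, a colony picked for its light yellow color, carried F194L in the second cassette. Positions are counted from the first methionine of the 227-residue protein, with the wild-type residue first. Each strain was 1 clone sampled 3 times after 96 h at 28 °C, and the labels do not say whether the 3 samples came from separate cultures, so the p-values below measure only the spread between these samples.

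Spt15 is the TATA-binding protein of Saccharomyces cerevisiae. It binds promoters upstream of the transcription start, bends the DNA and serves as the platform on which the initiation machinery assembles, in TFIID and with the other nuclear RNA polymerases as well. Error-prone mutagenesis of such a factor is used in global transcription engineering because a change in the protein can shift many promoters at once. Which genes moved the same way in strains with different mutations of Yl-SPT15 was the question behind the choice of these members. Each strain was a single clone, so effects of the mutations and other differences between the clones cannot be told apart.

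The accessions in the files come with no gene names, products or pathways, and the annotation used here for names (the W29 assembly ASM176148v1) gave a locus tag to 71 of the 77 members and to 5430 of all accessions, again without a product. Genes are therefore given by accession and W29 locus tag, and no role is stated for them. The libraries held from 17771507 to 23288547 counts, and the smallest raw count of a member was 31 in a control sample and 54 in a mutant sample. Samples of a strain differed by more than sampling noise, with a chi-square over degrees of freedom of 3.37 for the closest pair, and of 63.7 for the closest pair of different strains. Transcript of Yl-SPT15 itself was not analysed here, because no table used here pairs it with an accession.

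In the control the members were transcripts of modest abundance. Their median control level was 25.8 FPKM, with quartiles of 7.11 and 98.9, against a median of 48.3 FPKM over all 5569 features at the same limits. The members ranged from 1.26 FPKM for XM_505085.1 (YALI1_F09720g) to 1510 FPKM for XM_504707.1 (YALI1_E39171g). In CPM, 26 of the 77 members lay under 10 CPM in the control, which is 33.8% against 10.2% of all features. The control mean is the divisor of both changes, so the rule can itself favour genes with a low control level, which was not tested. The members took between 0.810% and 0.872% of all counts in the ctrl samples, between 1.89% and 1.97% in the Y5_2 samples and between 1.33% and 1.42% in the Y5_3 samples. The larger share in the mutants was set by the rule, which chose the members by their rise in these samples. Scaled counts give the level of a transcript relative to the others of a sample, so fewer or more cells and less or more RNA per cell cannot be told apart.

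The changes against the control are given as a description, because they chose the members. The limit of change was reached in Y5_2 by 330 of the 5569 features (5.93%) and in Y5_3 by 147 (2.64%), and the 77 members (1.38%) were 23.3% of the first set and 52.4% of the second. The same control samples entered both comparisons, so a gene that was low in them counts as raised in both mutants. With a single control clone, a rise in both mutants cannot be told apart from a low level in that clone. Another 104 features past 0.6 in Y5_2 were below the control in Y5_3, and 14 features past 0.6 in Y5_3 were below it in Y5_2. The median change of the members was 1.09 in Y5_2, a 2.14-fold rise, and 0.82 in Y5_3, a 1.77-fold rise. Over the single samples the member median had an SD of 0.013 in Y5_2 and 0.041 in Y5_3 (n = 3 each). A change above 1 on the log2 scale was seen for 46 members in Y5_2, for 25 in Y5_3 and for 19 in both, where 2.23% of the 5569 features passed it in Y5_2 and 0.700% in Y5_3.

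Every sample of both mutants lay above every control sample for all 77 members. Of the 5569 features, 30.4% had this order in Y5_2, 33.7% in Y5_3 and 13.4% in both, and nothing is read from this because the rule used the same values. The members just inside the limit were XM_505478.1 (YALI1_F21467g), XM_502930.1 (YALI1_D21145g) and XM_500025.1 (YALI1_A13019g), with a smaller change of 0.603, 0.602 and 0.601. Just outside it were XM_499642.1 with 0.595, XM_506041.1 with 0.591 and XM_499615.1 with 0.590.

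**Figure D1:**
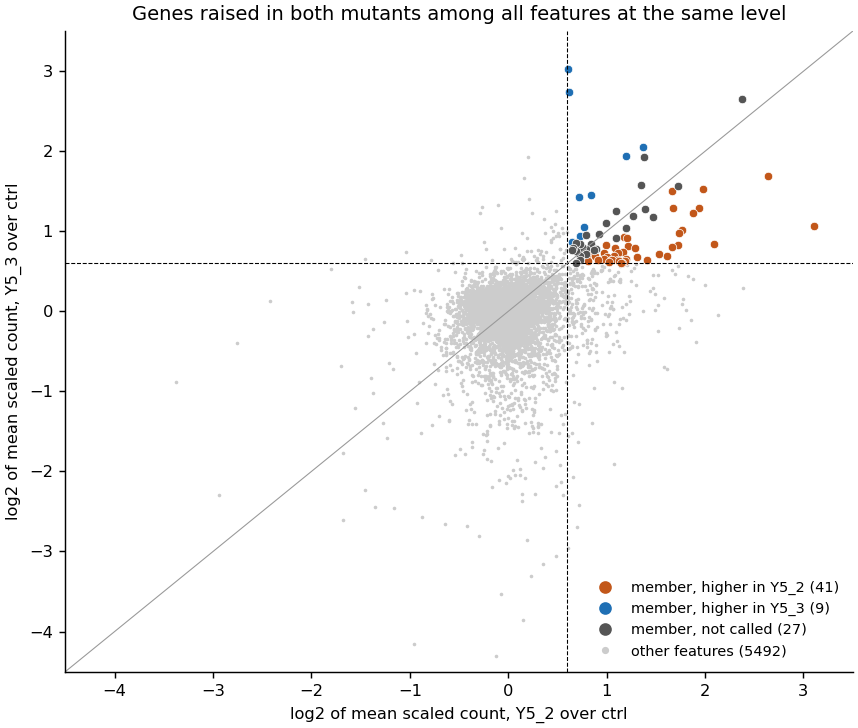
Log2 change of the mean scaled count against ctrl in Y5_2 (horizontal axis) and in Y5_3 (vertical axis). Grey points are the other features at the same level limits, colored points the 77 members by the result of the direct comparison of the mutants, dashed lines the limit of 0.6 and the thin line equal change. Most members lie below the line of equal change, and 2 members lie far above it at a change near 0.61 in Y5_2.

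The largest joint rise was that of XM_500592.1 (YALI1_B09117g), a feature of 612 bases. Its scaled CPM, the count divided by the library's median-of-ratios factor, was 4.38, 3.94 and 4.75 in the ctrl samples, 19.6, 22.5 and 25.7 in Y5_2 and 25.3, 33.0 and 24.1 in Y5_3. The mutant samples overlapped with each other and lay far above the control, with rises of 5.18-fold and 6.30-fold. The difference between the mutants was -0.27 on the log2 scale for Y5_2 over Y5_3 (standard error 0.12, adjusted p = 0.069, edgeR quasi-likelihood test, adjusted over all features), with a 95% interval from -0.54 to -0.0029. The difference passed in DESeq2 (adjusted p = 0.031), and in edgeR without Y5_2 replicate 3 or without Y5_3 replicate 3 (adjusted p = 0.022 each).

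XM_504543.1 (YALI1_E34586g) and XM_501485.1 (YALI1_C07360g) started from nearly the same level and rose about equally in the mutants. The former had 21.9, 22.2 and 20.2 scaled CPM in ctrl, 63.0, 70.1 and 79.9 in Y5_2 and 61.6, 76.5 and 52.8 in Y5_3. Its mutant samples were mixed in order, and the mutants differed by 0.17 on the log2 scale (interval from -0.15 to 0.50, adjusted p = 0.31 from edgeR). The latter had 23.3, 20.3 and 22.02 in ctrl, 69.2, 69.8 and 68.6 in Y5_2 and 64.8, 59.4 and 61.2 in Y5_3. Here the samples of a strain lay so close together that a small difference of 0.18 passed the test (standard error 0.052, adjusted p = 0.0048 from edgeR).

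XM_504133.1 (YALI1_E22884g), with the highest control level of these 10 members, had 144, 147 and 118 scaled CPM in ctrl, 486, 561 and 562 in Y5_2 and 367, 475 and 336 in Y5_3. All Y5_2 samples were above all Y5_3 samples by a narrow margin. The difference of 0.47 (adjusted p = 0.030 from edgeR) was lost without either of Y5_2 replicates 2 and 3 or of Y5_3 replicates 1 and 3 (adjusted p between 0.072 and 0.089 from edgeR) and in a fit of the 6 mutant samples alone (adjusted p = 0.052 from edgeR).

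XM_503024.1 (YALI1_D24398g) and XM_500484.1 (YALI1_B05609g) were higher in Y5_2. The former rose from 57.8, 58.9 and 53.3 scaled CPM in ctrl to 194, 231 and 230 in Y5_2 and 134, 165 and 119 in Y5_3. Its mutants did not overlap and differed by 0.66 on the log2 scale (standard error 0.12, adjusted p = 0.0021 from edgeR). The latter went from 18.7, 13.7 and 15.3 to 53.3, 50.6 and 48.3 in Y5_2 and 37.3, 37.8 and 41.9 in Y5_3, again without overlap, at a difference of 0.40 (adjusted p = 4.00e-04 from edgeR).

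XM_502837.1 (YALI1_D18089g) had a higher mean in Y5_3 than in Y5_2, but its mutant samples overlapped. It had 75.6, 71.6 and 71.9 scaled CPM in ctrl, 175, 172 and 212 in Y5_2 and 207, 259 and 191 in Y5_3. The difference of -0.22 for Y5_2 over Y5_3 had an interval from -0.52 to 0.088 (adjusted p = 0.18 from edgeR).

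The spread within a strain was widest for XM_504616.1 (YALI1_E36494g) and XM_502824.1 (YALI1_D17666g). The former had 20.8, 16.5 and 13.1 scaled CPM in ctrl, 29.8, 49.4 and 52.3 in Y5_2 and 71.0, 62.4 and 59.1 in Y5_3. Y5_2 replicate 1 was the mutant sample nearest to the control, and the coefficient of variation in Y5_2 was 27.8%. The difference of -0.53 between the mutants (interval from -1.09 to 0.030, adjusted p = 0.084 from edgeR) was the least precise among the members. XM_502824.1, at the low end of the range, had 2.65, 1.68 and 2.38 in ctrl, 5.15, 5.68 and 6.797 in Y5_2 and 5.07, 7.04 and 4.25 in Y5_3, and its mutants overlapped fully.

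**Figure D2:**
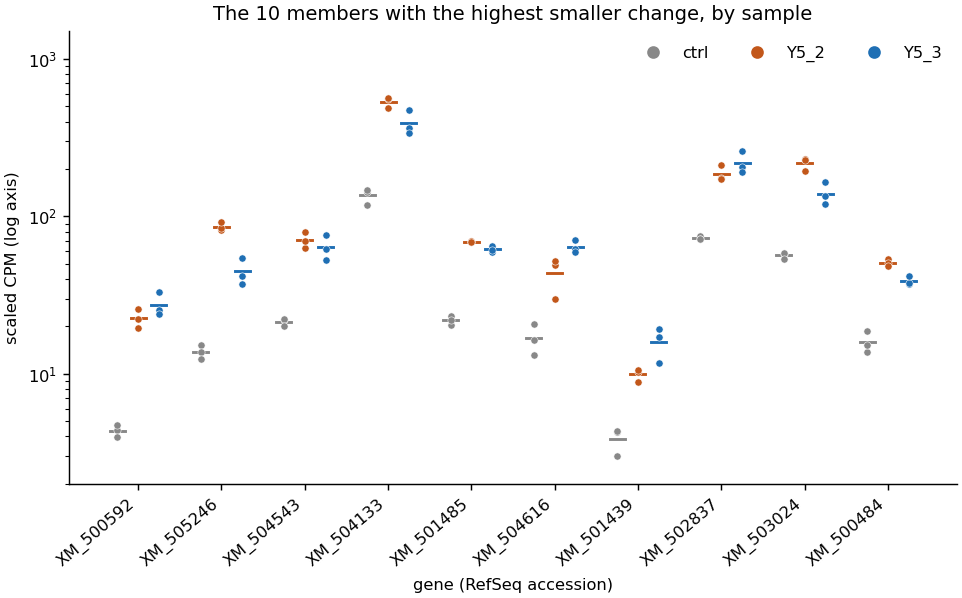
Scaled CPM on a log axis of the 10 members with the highest smaller change, by RefSeq accession. Points are single samples of ctrl, Y5_2 and Y5_3, and short lines are the strain means (n = 3). Every mutant point of a gene lies above its control points, with control means from 3.85 scaled CPM for XM_501439.1 to 136 for XM_504133.1.

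The 5 members with the highest control FPKM are given in that unit. XM_504707.1 (YALI1_E39171g) had the highest control level of all members, with 1391, 1493 and 1647 FPKM in ctrl, 2653, 2794 and 2513 in Y5_2 and 2552, 2538 and 2381 in Y5_3. It rose 1.69-fold in Y5_2 and 1.75-fold in Y5_3 in scaled counts, and the mutants overlapped, with a difference of -0.034 on the log2 scale and an interval from -0.17 to 0.099 (adjusted p = 0.64 from edgeR). The next was XM_501607.1 (YALI1_C11862g), with 1396, 1440 and 1465 FPKM in ctrl, 3016, 3128 and 2955 in Y5_2 and 2075, 2041 and 2114 in Y5_3. Its strains were fully separated, and Y5_2 was higher than Y5_3 by 0.42 (standard error 0.044, adjusted p = 2.83e-07 from edgeR).

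XM_504261.1 (YALI1_E26229g) and XM_503761.1 (YALI1_E12614g) followed the same order of strains. The former had 897 ± 13.3 FPKM in ctrl, 2166 ± 185 in Y5_2 and 1483 ± 49.6 in Y5_3 (SD, n = 3), a difference of 0.42 between the mutants (adjusted p = 4.69e-06 from edgeR). The latter had 756 ± 54.4, 1542 ± 64.0 and 1121 ± 39.1 FPKM (SD, n = 3), a difference of 0.33 (adjusted p = 4.17e-05 from edgeR). For XM_500900.1 (YALI1_B19429g) the step was larger, from 437 ± 10.8 FPKM in ctrl to 1514 ± 22.7 in Y5_2 and 807 ± 75.5 in Y5_3 (SD, n = 3), and the mutants differed by 0.78 (standard error 0.051, adjusted p = 8.79e-10 from edgeR). In FPKM, which carry no scaling beyond the total count, all 5 of these genes were above every control sample in both mutants. Nothing is read from this, because the rule chose them by the counts of the same samples.

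The rule set no limit on the difference between the mutants. That difference is still not independent of the rule. It uses the same samples and is close to the gap between the changes that chose the members. Fewer features reached the limit in Y5_3 (147) than in Y5_2 (330), so the rule can itself favour members higher in Y5_2. The shares below are given as a description. Calls were made in edgeR by its quasi-likelihood test, at a Benjamini-Hochberg adjusted p below 0.05 over 6037 features. Of the members, 41 of 77 were higher in Y5_2 than in Y5_3, or 53.2%, against 36.5% of all features tested. Another 9 members, or 11.7%, were higher in Y5_3, against 30.9% of all features. The other 27 members were not called. The median difference was 0.20 on the log2 scale over the members and 0.029 over all features tested, and 0.47 over the 41 members. Called or not, 40 of the 77 members, or 51.9%, had every Y5_2 sample above every Y5_3 sample, against 37.9% of the 5569 features, and 14, or 18.2%, had the reverse order, against 35.7%. When libraries were scaled by their totals instead of TMM, 49 members were higher in Y5_2 and 6 in Y5_3, while the calls over all features moved from 2203 and 1867 to 3007 and 1213.

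**Figure D3:**
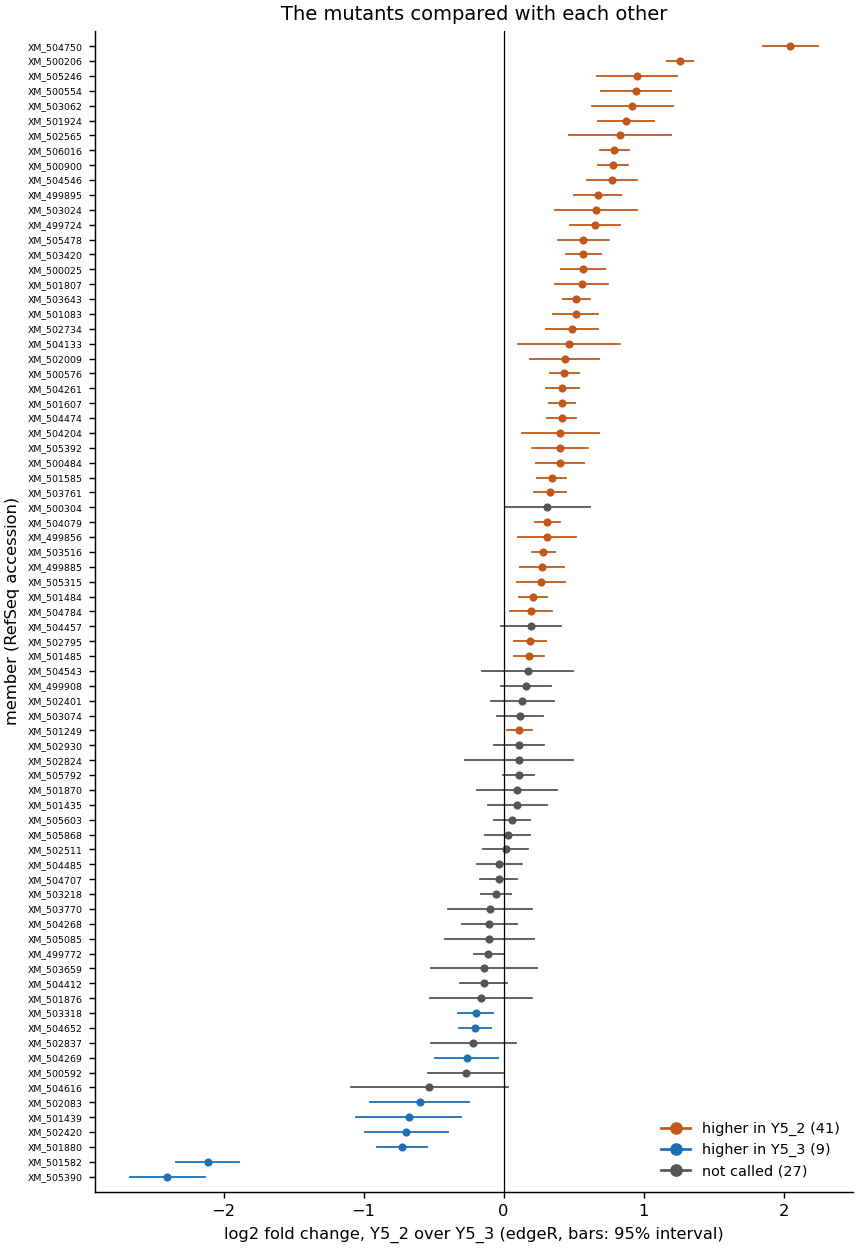
Log2 fold change of Y5_2 over Y5_3 for each of the 77 members, in order of size, with bars for the 95% interval of edgeR's quasi-likelihood fit. Orange marks the 41 members higher in Y5_2, blue the 9 higher in Y5_3 and grey the 27 not called. The values run from -2.40 for XM_505390.1 to 2.05 for XM_504750.1.

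The widest gaps in favour of Y5_2 were those of XM_504750.1 and XM_500206.1. XM_504750.1, without a W29 locus tag, had 6.40, 7.30 and 8.32 scaled CPM in ctrl, 58.7, 61.2 and 70.3 in Y5_2 and 15.9, 17.1 and 13.3 in Y5_3, and the mutants differed by 2.05 on the log2 scale (standard error 0.0925, adjusted p = 5.06e-11 from edgeR). XM_500206.1 (YALI1_A19398g) had 85.2, 81.4 and 93.5 in ctrl, 359, 364 and 382 in Y5_2 and 154, 158 and 155 in Y5_3, a difference of 1.26 (standard error 0.043, adjusted p = 2.95e-13 from edgeR). These were the 2 members more than 2-fold higher in Y5_2 than in Y5_3.

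XM_505246.1 (YALI1_F14136g), XM_500554.1 (YALI1_B08134g) and XM_503062.1 (YALI1_D25529g) came next. XM_505246.1 had 15.2, 13.8 and 12.5 scaled CPM in ctrl, 82.4, 84.2 and 91.5 in Y5_2 and 42.1, 54.6 and 37.3 in Y5_3. XM_500554.1 had 7.96, 9.61 and 7.64 in ctrl, 25.3, 28.95 and 22.7 in Y5_2 and 15.9, 12.0 and 12.6 in Y5_3. XM_503062.1 had 136, 122 and 119 in ctrl, 397, 380 and 475 in Y5_2 and 205, 259 and 206 in Y5_3. In none of them did the mutants overlap, and the differences were 0.96, 0.95 and 0.92 (adjusted p = 1.36e-04, 6.12e-06 and 3.30e-04 from edgeR).

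In favour of Y5_3, a pair of members stood apart from the rest. XM_505390.1 (YALI1_F18740g) had 2.27, 2.21 and 2.21 scaled CPM in ctrl, 3.98, 3.17 and 3.06 in Y5_2 and 15.7, 20.5 and 18.4 in Y5_3. XM_501582.1 (YALI1_C10762g) had 5.52, 5.41 and 5.99997 in ctrl, 9.98, 8.34 and 7.64 in Y5_2 and 35.1, 43.5 and 34.8 in Y5_3. Both rose only slightly in Y5_2, by 0.61 and 0.62 on the log2 scale, near the limit of the rule, and by 3.03 and 2.74 in Y5_3. The mutants differed by -2.40 (standard error 0.13, adjusted p = 5.91e-11 from edgeR) and -2.11 (standard error 0.11, adjusted p = 8.87e-11 from edgeR).

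These features lie on different chromosomes, F and C, but have the same length of 1107 bases. Without a sequence at hand, reads shared by near-identical copies could not be checked, and their values are uncertain to that extent. Another pair of equal length, XM_504268.1 and XM_503318.1, also had like changes, 0.73 and 0.65 in Y5_2 and 0.85 and 0.87 in Y5_3. Their control means were far apart, at 8.63 and 59.4 scaled CPM. Other members of equal length differed more, such as XM_504616.1 and XM_499885.1 with 1.38 and 0.98 in Y5_2 and 1.93 and 0.73 in Y5_3. The rule bounds both changes from below, so like changes alone do not show whether features are copies.

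The third of the members higher in Y5_3 was XM_501880.1, the shortest member at 150 bases, with 7.12, 7.14 and 7.70 scaled CPM in ctrl, 15.5, 19.03 and 15.9 in Y5_2 and 28.9, 25.8 and 29.98 in Y5_3. The strains formed 3 separate steps, and the mutants differed by -0.73 (standard error 0.084, adjusted p = 8.40e-07 from edgeR). XM_502420.1 (YALI1_D06131g) had 4.13, 2.99 and 4.70 in ctrl, 6.69, 5.22 and 7.59 in Y5_2 and 10.8, 10.8 and 10.3 in Y5_3, a difference of -0.69 (adjusted p = 3.05e-04 from edgeR). XM_501439.1 (YALI1_C05857g) had 4.25, 4.31 and 2.99998 in ctrl, 8.87, 10.3 and 10.6 in Y5_2 and 17.02, 19.2 and 11.7 in Y5_3, a difference of -0.68 (adjusted p = 0.0041 from edgeR). In both genes the mutants did not overlap. The remaining members in this direction, XM_502083.1, XM_504269.1, XM_504652.1 and XM_503318.1, differed by -0.60, -0.26, -0.20 and -0.20. The calls of XM_504269.1, XM_504652.1 and XM_503318.1 were lost when libraries were scaled by their totals (adjusted p = 0.25, 0.22 and 0.26 from edgeR). That of XM_504269.1 was also lost without either of Y5_2 replicates 1 and 3 or of Y5_3 replicates 2 and 3 (adjusted p between 0.053 and 0.18 from edgeR), and that of XM_503318.1 without Y5_3 replicate 3 (adjusted p = 0.057 from edgeR).

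For the 27 members that were not called, the interval of the difference shows what the samples could resolve. In 26 of them the 95% interval lay within 2-fold in either direction, and the median width of the interval was 0.42 on the log2 scale. XM_502511.1 (YALI1_D08971g) was the most balanced, with 132, 148 and 159 scaled CPM in ctrl, 268, 275 and 242 in Y5_2 and 283, 256 and 249 in Y5_3. Its mutants overlapped, and their difference was 0.016 with an interval from -0.14 to 0.18 (adjusted p = 0.86 from edgeR). This gene was chosen after its values were seen.

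As a description, the direction of the difference among the members varied with the level in the control. Of the 20 members with at least 100 CPM in ctrl, 17 were higher in Y5_2 and 0 in Y5_3, at an adjusted p under 0.05 from edgeR. Of the other features at that level, 29.3% were higher in Y5_2 and 45.8% in Y5_3 in the same test. Of the 31 members between 10 and 100 CPM, 17 were higher in Y5_2 and 2 in Y5_3, against 41.1% and 25.3% of the other features. Of the 26 members below 10 CPM, 7 were higher in each direction, against 47.0% and 8.52% of the other features. No test was made of these shares. The difference is close to the gap between the changes that chose the members, and the other features were not chosen this way. The median change of the members in Y5_2 was 1.08 below 10 CPM, 1.13 between 10 and 100 CPM and 1.05 above. In Y5_3 it was 1.09, 0.79 and 0.74 in the same order, so it fell toward the limit of the rule. Whether the rule itself set this trend was not tested.

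**Figure D4:**
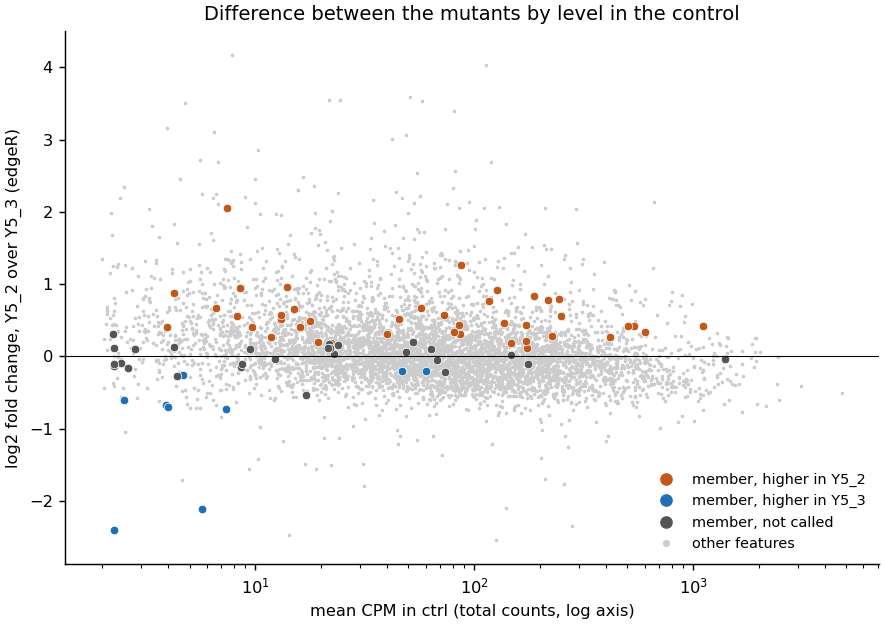
Log2 fold change of Y5_2 over Y5_3 (edgeR) against the mean control level in CPM on a log axis, for the 77 members (colored by call) and the other features at the same limits (grey). All 20 members at 100 CPM or more are either higher in Y5_2 (17) or not called, and 7 of the 9 members higher in Y5_3 lie under 10 CPM.

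Samples of a strain scattered more for the members than for other features. The rule took ratios of means of these same samples, so it may itself favour genes with a wide spread, which was not tested. In ctrl the median coefficient of variation was 6.96% for the members at 100 CPM or more and 3.65% for the other features at that level, and 7.64% against 4.61% between 10 and 100 CPM. In Y5_3 it was 4.004% against 2.35% and 7.24% against 4.10% in the same bins, and in Y5_2 4.68% against 3.31% and 5.69% against 4.84%. Below 10 CPM it was 10.7% against 9.29% in ctrl, 9.59% against 9.16% in Y5_2 and 12.7% against 9.87% in Y5_3.

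The scatter had a common part. Y5_3 replicate 3 was the lowest of its strain for 44 of the 77 members, or 57.1%, against 30.1% of the other features, and the highest for 13, or 16.9%, against 37.7%. Among the 10 members with the highest smaller change it was the lowest for 8, and Y5_3 replicate 2 was the highest for 7. In Y5_2, replicate 1 was the highest for 10 members, or 13.0%, against 26.6% of the other features. In ctrl, replicate 1 was the lowest for 34 members, or 44.2%, against 35.5%. What set these samples apart was not tested. Without Y5_3 replicate 3 the rule gave 84 genes, among them all 77 members, and without ctrl replicate 1 it gave 75, of which 69 were members.

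**Figure D5:**
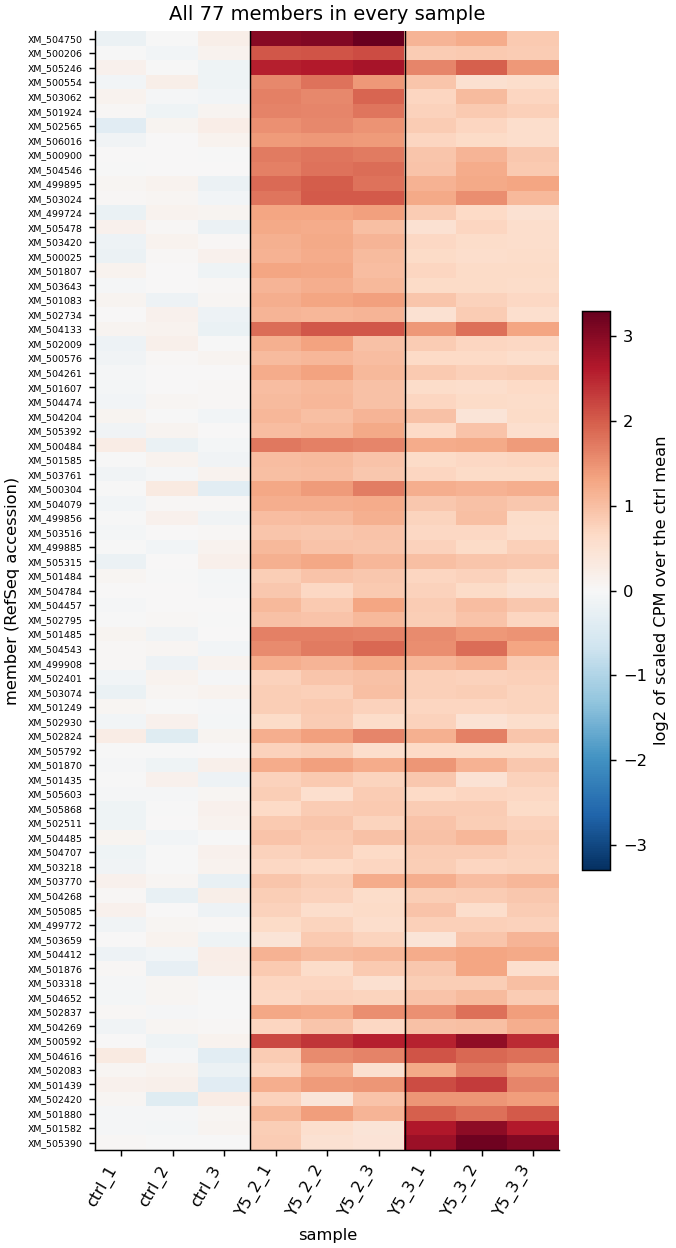
Log2 of the scaled CPM over the ctrl mean for all 77 members (one line each, in order of the difference between the mutants) in all 9 samples. The scale runs from blue (lower) through white to red (higher). Y5_2 is the darker block at the top, led by XM_504750.1, and Y5_3 the darker block at the bottom, ending with XM_501582.1 and XM_505390.1.

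The members were somewhat shorter than other features. Their median feature length was 1107 bases (quartiles 717 and 1596) against 1263 bases (837 and 1857) over the 5569 features, and 28 of the 77 members, or 36.4%, were under 800 bases, against 23.5%. The range of the members was from 150 bases in XM_501880.1 to 2805 bases in XM_504079.1. The lengths were recovered from the counts and FPKM.

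The members were spread over the genome. In the order of the W29 assembly, 22 of the 71 placed members lay on chromosome E, 13 on D, 10 on C, 10 on F, 9 on A and 7 on B. As a share of the placed features at the same limits this was 1.82% on A and on E, 1.47% on C, 1.46% on D and 0.90% on B and on F. Of the placed members, 2, or 2.82%, had another member as the next measured gene, close to the 2.49% of the other placed features. In addition, XM_501870.1, XM_504457.1 and XM_503643.1 each adjoined a gene past the limit of change in both mutants. Those neighbours were outside the limits of level, so they are not counted as members in this share.

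The adjoining pair of members was XM_504268.1 (YALI1_E26492g) and XM_504269.1 (YALI1_E26513g). The former had 8.80, 7.25 and 9.85 scaled CPM in ctrl, 15.1, 14.6 and 13.1 in Y5_2 and 15.2, 15.5 and 15.9 in Y5_3. The latter had 4.30, 4.83 and 4.81 in ctrl, 7.65, 8.70 and 7.48 in Y5_2 and 9.03, 9.32 and 10.7 in Y5_3. In both genes every Y5_3 sample was above every Y5_2 sample. The difference was called for the latter (-0.26, adjusted p = 0.039 from edgeR) and not for the former (-0.10, interval from -0.30 to 0.095, adjusted p = 0.35 from edgeR), and the genes were not tested against each other.

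In 2 further places a single gene separated members. XM_504543.1 and XM_504546.1 (YALI1_E34686g) flanked XM_504545.1, which changed by 0.18 in Y5_2 and 0.16 in Y5_3 on the log2 scale, while its flanking genes rose by 1.73 and 1.77 in Y5_2. XM_505390.1 and XM_505392.1 (YALI1_F18835g) flanked XM_505391.1, which had 2.47 ± 0.063 scaled CPM in ctrl, 3.33 ± 0.093 in Y5_2 and 4.58 ± 0.52 in Y5_3 (SD, n = 3), a change of 0.43 and 0.89. At the same limits of level, 127 genes next to a member were not members themselves. Their median changes were 0.049 in Y5_2 and 0.033 in Y5_3, against -0.0087 and 0.011 over all other placed features at these limits. Of these 127 genes, 28.3% had a positive change in both mutants, against 26.3% of the others. Neighbours outside the limits of level were left out of these values. Among them were XM_501871.1 (2.90 in Y5_2 and 2.66 in Y5_3), XM_504459.1 (1.56 and 0.99) and XM_503642.1 (3.34 and 0.92). The counts did not come with a stated strand, and reads of overlapping neighbours cannot be told apart.

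With no limit on level or annotation, 135 features with a nonzero control met the change of 0.6 in both mutants. Beside the 77 members, 52 of them had an accession but less than 2 CPM in ctrl, 6 were features numbered by the authors without an accession, and 0 were among the 100 most abundant features. Of the features without an accession, Novel00168 had 85.4, 78.8 and 73.4 scaled CPM in ctrl, 327, 370 and 336 in Y5_2 and 188, 223 and 174 in Y5_3. Novel00142 had 152, 140 and 122 in ctrl, 203, 312 and 297 in Y5_2 and 360, 282 and 298 in Y5_3. In both features every mutant sample was above the control, as also in Novel00039 and Novel00160. In Novel00023 and Novel00066 mutant samples overlapped with the control. Nothing is read from this order, because these features were picked by their rise in the same samples. Novel00168 was higher in Y5_2 than in Y5_3 by 0.84 on the log2 scale (adjusted p = 7.99e-05 from edgeR). Novel00142 was not called, at -0.19 (adjusted p = 0.41 from edgeR).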

How the data were processed

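RNA of 9 samples, 3 for each strain, was read by Illumina paired-end sequencing. The authors deposited raw read counts per feature and a table of FPKM, normalized by the authors for feature length and library total. The submitters' processing notes name HTSeq 0.6.1 and DESeq 1.18.0, and the aligner and genome build are not given in the sources used here. Every column of sample values was used.

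Members were found with DESeq2 median-of-ratios factors (DESeq2 1.42.0). Scaled CPM are counts divided by these factors, expressed per the mean scaled total as CPM. Deposited counts of the mutants were compared with edgeR 4.0.16 under R 4.3.3 (TMM, 1 term for each strain over all samples, robust quasi-likelihood F test, two-sided, Benjamini-Hochberg adjustment) over features that reached 10 counts in 3 or more samples, and standard errors were derived from the fold change and F, with 95% intervals. Pipelines were tested on simulated data. Alternatives were other scalings, filters and limits of the rule, DESeq2's Wald test, limma 3.58.1 on log2(FPKM + 1) and log2(FPKM + 0.1), a replicate block and leaving out each sample.

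Accessions were matched to RefSeq ASM176148v1 without their version, for locus tags and gene order. Of the matched members, 57 had the same length in both sources. Lists by product name were not used, because the table holds no product names. Members and lists were chosen with earlier results of these data known. Named genes were the 10 members with the highest smaller change, the 5 with the highest control FPKM, the 5 with the largest difference between the mutants in each direction, the 3 on each side of the limit and the 2 with the widest spread; others are named for their place, length or call, after their values were seen.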

Additional observations from a re-analysis of the deposited data

Results flagged for a closer look

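Single members differed between the mutant strains in the direct comparison (edgeR's quasi-likelihood test of each gene, adjusted p under 0.05). A difference was called for 41 members (53.2%) that were higher in Y5_2 and for 9 (11.7%) that were higher in Y5_3. These shares are not independent of the rule, which can itself favour members higher in Y5_2, and the members were not tested as a set. The same test called 36.5% and 30.9% of all features, so a called difference is not particular to the members. Single genes with the largest differences were singled out by the same test. On the log2 scale of Y5_2 over Y5_3, the values were 2.05 for XM_504750.1, 1.26 for XM_500206.1, 0.96 for XM_505246.1, 0.95 for XM_500554.1 and 0.92 for XM_503062.1. In the other direction they were -2.40 for XM_505390.1, -2.11 for XM_501582.1, -0.73 for XM_501880.1, -0.69 for XM_502420.1 and -0.68 for XM_501439.1. With 3 samples in each strain, Dixon's test for a single far sample was not made.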

How the results depend on the processing

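The rule gave 77 genes, 73 with TMM factors (all of them members), 72 with upper quartile factors (all members) and 63 with total counts (58 members). It gave 51 genes with a control mean of at least 10 CPM, 19 with both changes at least 1 and 119 with both at least 0.5. With each sample left out in turn it gave from 73 to 87 genes, and 58 members met it every time. The median change of the members moved to 1.15 in Y5_2 and 0.73 in Y5_3 with total counts, and without single samples it lay between 1.07 and 1.12 in Y5_2 and between 0.81 and 0.86 in Y5_3. Members higher in Y5_2 numbered from 39 to 49 and those higher in Y5_3 from 6 to 11 over all alternatives. Over all features, of which 5782 to 6136 were tested, the calls ranged from 1980 to 3007 and from 1204 to 2052. The replicate block gave 41 and 10 members, against 2186 and 1851 of all 6037 features tested. Same-numbered samples did not deviate together more than others (correlations from -0.13 to 0.16, against -0.26 to 0.21 for different numbers). No pairing by number was seen, but with 3 samples in each strain this check cannot settle it. Of the 34 single genes whose difference was followed, none that was called changed sign. Calls were lost in 8 of 19 alternatives for XM_504269.1, 5 for XM_504133.1, 4 for XM_503318.1 and 3 for XM_504652.1, while XM_500592.1, XM_502930.1 and XM_504543.1 gained one in 3, 3 and 1. The lowest count of a member was 31, and what set the precision of single members was not tested.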
